A study of Mus musculus with 4 samples.

Results

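The integrins and laminins of these tumours are described here: laminin chains, which build the basement membrane, and the integrin subunits that bind them and other ligands. Earlier results of these data were known when the members were chosen. The choice was by gene symbol: every laminin alpha, beta or gamma chain and every integrin alpha or beta subunit among the genes listed. This gave 37 of 32285 gene IDs, namely 11 laminin chains, 18 integrin alpha subunits and 8 integrin beta subunits, with 384315 UMIs (unique molecular identifiers, each a captured transcript) in all. The data are single-cell RNA profiles, made with a 10x Genomics 3' v3 kit, of whole prostate tumours from 4 genetically engineered mice, 1 tumour per mouse. The 2 PSp mice carried PB-Cre, PtenL/L and SpopF133V with the mTmG reporter. The 2 PCSp mice carried the same alleles and also Chd1L/L, so that the genotypes differ in the floxed Chd1 gene, which encodes a chromatin remodeller. Castration was shared by all 4 mice: it was done when they were 9 months old, and tumours were taken 1 month after it. PB-Cre drives recombination from a probasin promoter, active in prostate epithelium, and stromal and immune cells are not its intended targets. No intact mouse, no mouse without Cre and no wild-type prostate enters any comparison here.

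Laminins are cross-shaped trimers of 1 alpha, 1 beta and 1 gamma chain that polymerise into the sheet under epithelia and around vessels and muscle. Laminin-332, which contains Lama3 and Lamb3, anchors epithelial cells and is the main ligand of integrin α6β4 (Itga6 with Itgb4) in hemidesmosomes and of α3β1 (Itga3 with Itgb1). Each integrin is a pair of 1 alpha and 1 beta subunit; Itgb1 pairs with many alpha subunits, the β2 and β7 pairs belong to leukocytes, and αv pairs such as αvβ6 and αvβ8 activate latent TGF-beta. In the prostate, basal cells rest on the basement membrane and are known for α6β4 and laminin-332.

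The libraries held 6539 to 9656 barcodes and 66874620 to 90839725 UMIs each, with median UMIs per barcode lowest in PCSp mouse 2 (2289 against 3448.5 to 3757). Cells were grouped by clustering without the 37 members, and a class is named after its markers only ("epithelial-like"). Between 5154 and 7812 cells per mouse were kept, of which 2694 to 3527 were epithelial-like. Any 2 libraries shared 11 to 27 cell barcodes (0.168% to 0.372% of the smaller library). A level below is the UMI count of a gene, summed over all cells of a class in 1 mouse and scaled to 1000000 UMIs (CPM). Where 4 values are given in a row, they are PSp mouse 1, PSp mouse 2, PCSp mouse 1 and PCSp mouse 2. Levels of different genes are not scaled to transcript length, so the text compares a gene between classes and not genes with each other. Levels were compared over the 8 classes with at least 20 cells in every mouse. The smooth muscle and pericyte-like class (33 to 75 cells per mouse) and the B and plasma-like class (24 to 77) are the smallest. Free RNA from other cells enters every droplet: a ceiling for it was set per gene and class from the 3 most abundant markers of each other class, and a level at or under that ceiling is not read as expression. The smooth muscle and pericyte-like class also held 1401 to 4077 CPM of the 12 epithelial markers in sum, above what the ceiling allows for, and the part of this in its levels was not tested.

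The promoters of 4 members that carry the results below are printed first, 250 bases before the start site on the gene's strand, from RefSeq on build GRCm38.p6. RefSeq promoters were found for 23 members, with 26 start sites in all. Capitals mark matches, on either strand, to 1 of 3 motifs: GAGGAAG, the core of sites of the myeloid factor PU.1; TGANTCA, the AP-1 site; and GGGCGG, the GC box of SP1 factors. The letters GAGGAAG occur in 7 of 26 member promoters and 10.6% of all 32851, TGANTCA in 1 of 26 member promoters and 6.75% of all 32851, and GGGCGG in 9 of 26 member promoters and 32.7% of all 32851. No 2 matches overlap in the sequences below. Lamb3, whose level was high in basal-like and also in lymphoid and neutrophil-like cells, is shown at the first of its 2 RefSeq starts (chr1:193301744-193301993, plus strand). Lamb1, a basal-like genotype difference, lies at chr12:31265043-31265292 (plus strand). Itgam (chr7:128062390-128062639, plus strand) and Itgax (chr7:128129300-128129549, plus strand) are myeloid alpha subunits.
Lamb3: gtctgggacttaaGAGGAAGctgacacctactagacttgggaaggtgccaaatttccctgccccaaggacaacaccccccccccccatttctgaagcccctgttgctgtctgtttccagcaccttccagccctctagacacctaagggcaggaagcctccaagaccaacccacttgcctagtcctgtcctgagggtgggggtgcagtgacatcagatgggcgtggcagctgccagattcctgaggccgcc
Lamb1: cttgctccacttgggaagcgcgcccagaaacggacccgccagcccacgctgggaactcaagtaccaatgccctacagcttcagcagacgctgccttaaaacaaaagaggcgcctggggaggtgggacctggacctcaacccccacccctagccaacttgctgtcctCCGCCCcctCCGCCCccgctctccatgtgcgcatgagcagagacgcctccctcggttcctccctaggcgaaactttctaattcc
Itgam: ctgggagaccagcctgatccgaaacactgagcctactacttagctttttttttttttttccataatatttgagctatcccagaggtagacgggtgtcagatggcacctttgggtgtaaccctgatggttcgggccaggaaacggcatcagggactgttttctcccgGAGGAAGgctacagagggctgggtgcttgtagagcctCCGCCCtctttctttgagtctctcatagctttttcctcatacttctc
Itgax: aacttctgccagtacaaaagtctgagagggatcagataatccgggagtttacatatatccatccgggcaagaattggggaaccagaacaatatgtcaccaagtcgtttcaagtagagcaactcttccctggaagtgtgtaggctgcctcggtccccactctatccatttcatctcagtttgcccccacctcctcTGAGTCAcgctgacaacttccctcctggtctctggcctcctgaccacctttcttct
In these windows Lamb3 and Itgam each hold 1 GAGGAAG match, Itgam also 1 GC box on the minus strand, Lamb1 2 GC boxes on the minus strand, and Itgax 1 AP-1 match. A match describes the letters and is no evidence of binding.

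The members divided the tumour into compartments. In their highest class, 34 of the 37 members reached at least 10 CPM: 7 were highest in epithelial-like cells, 6 in smooth muscle and pericyte-like cells, 6 in endothelial-like cells, 4 in fibroblast-like cells, 4 in neutrophil-like cells, 3 in macrophage and monocyte-like cells, 3 in T and NK-like cells and 1 in B and plasma-like cells. For 20 of these 34, the lowest mouse of that class lay above the highest mouse of every other class, which held for 40.4% of the 11898 genes of that level. Lama1, Itgad and Itga2b stayed under 10 CPM in each of the 8 classes. Lama1, the alpha chain of early embryonic basement membranes, had 121 UMIs in all, and Itgad, a leukocyte alpha subunit, had 41. Itga2b, the platelet alpha subunit, had 978, at 6.62 CPM in fibroblast-like cells and less in the others of the 8. Outside the 8, Itga2b averaged 44.4 CPM in glial-like cells (8 UMIs) and 7.69 CPM in lymphatic-endothelial-like cells (2 UMIs). These are descriptions of levels and carry no test.

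**Figure D1:**
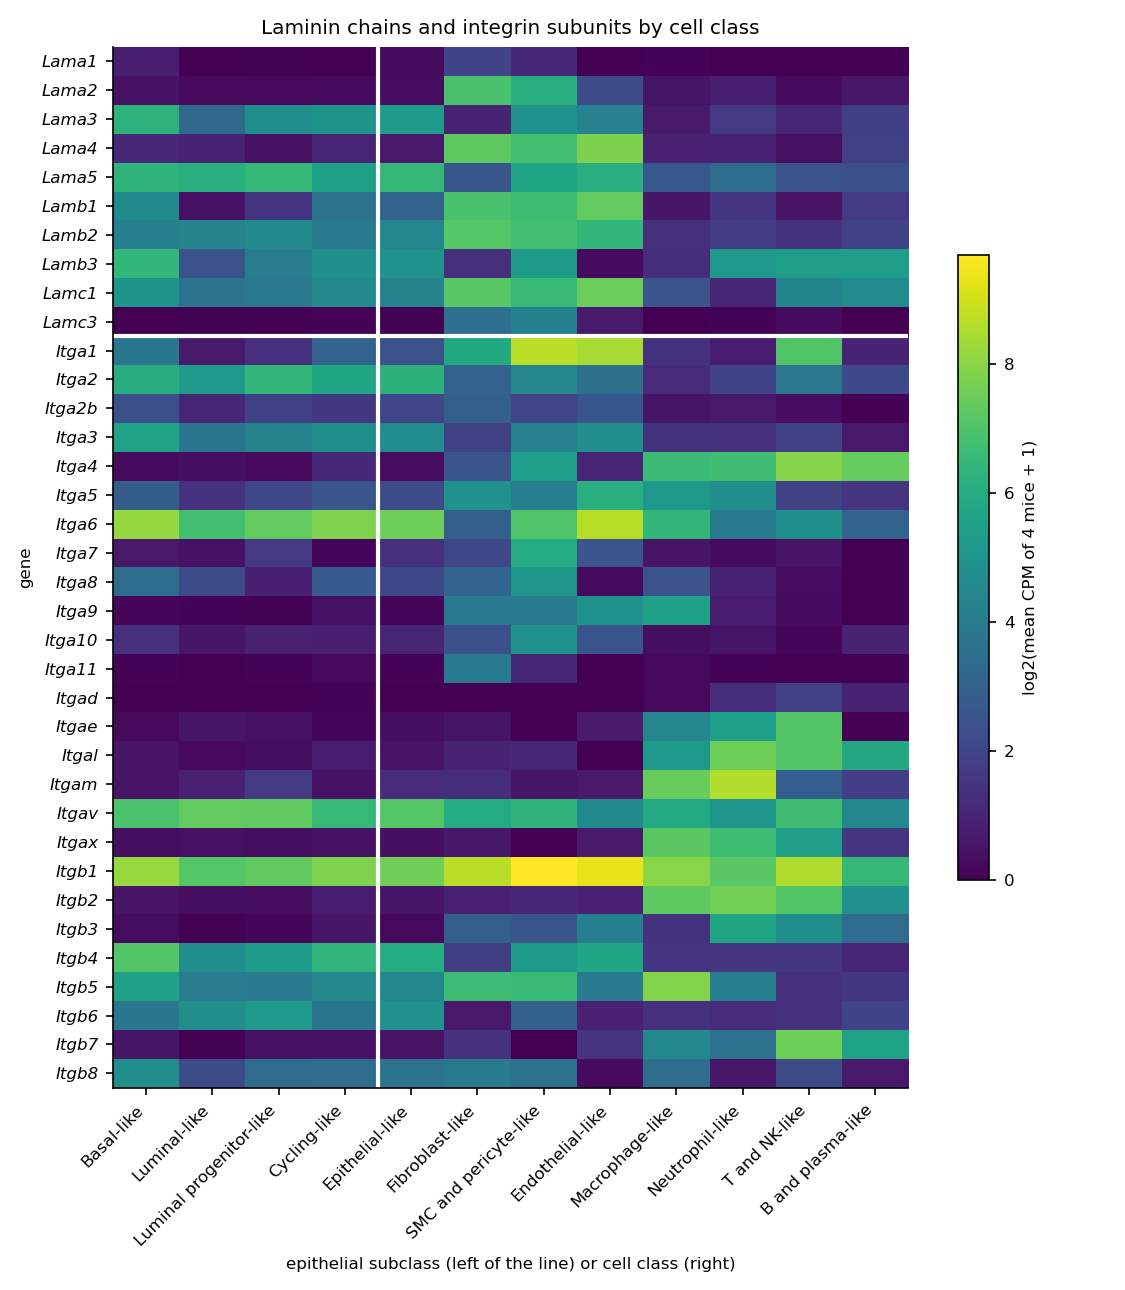
Mean level of 36 members in the 4 epithelial subclasses (left of the white line) and the 8 cell classes (right), as log2(mean CPM of 4 mice + 1), with laminin chains above the white line and integrin subunits below it. Laminin chains are bright in epithelial-like and stromal columns, and the leukocyte integrins (Itgal, Itgam, Itgax, Itgb2, Itgb7) in the immune columns.

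Among the laminin alpha chains, Lama2 was highest in fibroblast-like cells, Lama4 in endothelial-like cells and Lama3 and Lama5 in epithelial-like cells. Lama2, the chain of muscle and nerve basement membranes, had 114 and 149.8 CPM in PSp against 126 and 87.7 CPM in PCSp in fibroblast-like cells. Its next class was smooth muscle and pericyte-like, at 70.8 CPM on average, and the mice of both classes did not overlap. Lama4, the vascular chain, was measured at 157 and 239 CPM in PSp against 238 and 227 CPM in PCSp in endothelial-like cells. In fibroblast-like cells Lama4 had 144 and 129 CPM in PSp against 182 and 161 CPM in PCSp, so that its mice overlapped with the endothelial-like ones although their mean was lower. Lama5, the chain of mature epithelial and vascular membranes, had 85.8 and 94.3 CPM in PSp against 83.5 and 85.5 CPM in PCSp in epithelial-like cells and 65.8 to 69.9 CPM in endothelial-like cells. Those ranges were separate but close, and Lama5 was thus found in both an epithelial and a vascular compartment. Lama3, the alpha chain of laminin-332, had 41 and 29.3 CPM in PSp against 37.5 and 49.3 CPM in PCSp in epithelial-like cells. Its next class was smooth muscle and pericyte-like, at 30.2 CPM on average, and the mice of both classes overlapped. Endothelial-like cells held Lama3 at 13.7 to 26 CPM, above their free-RNA ceiling of 4.2 CPM. Lama1 was at 1.49, 0, 1.08 and 8.83 CPM in fibroblast-like cells, and 65 of its 121 UMIs came from PCSp mouse 2.

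Most of the beta and gamma chains described here were highest in stromal classes. Lamb1, the beta chain shared by many laminins, had 120.4 and 172 CPM in PSp against 170.5 and 196 CPM in PCSp in endothelial-like cells. Fibroblast-like cells held Lamb1 at 119.6, 106, 133 and 119 CPM, overlapping the endothelial-like mice. Lamb2, its counterpart in muscle and mature vessels, had 130.0 and 143 CPM in PSp against 140.1 and 141 CPM in PCSp in fibroblast-like cells and 74 to 97.8 CPM in endothelial-like cells. Smooth muscle and pericyte-like cells came between them at a mean of 109.9 CPM, and their mice overlapped the fibroblast-like ones. Lamc1, the usual gamma partner of Lamb1 and Lamb2, had 151 and 183 CPM in PSp against 197 and 193 CPM in PCSp in endothelial-like cells and 127 to 153 CPM in fibroblast-like cells. Both stromal ranges overlap, and the epithelial-like mean of Lamc1 was 19 CPM. Lamc3 was low throughout, with 25.3, 10.3, 21 and 16.7 CPM in smooth muscle and pericyte-like cells (24 UMIs) and 6.93 to 18.5 CPM in fibroblast-like cells. Lamb3, the beta chain of laminin-332, had another pattern and is described below.

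**Figure D2:**
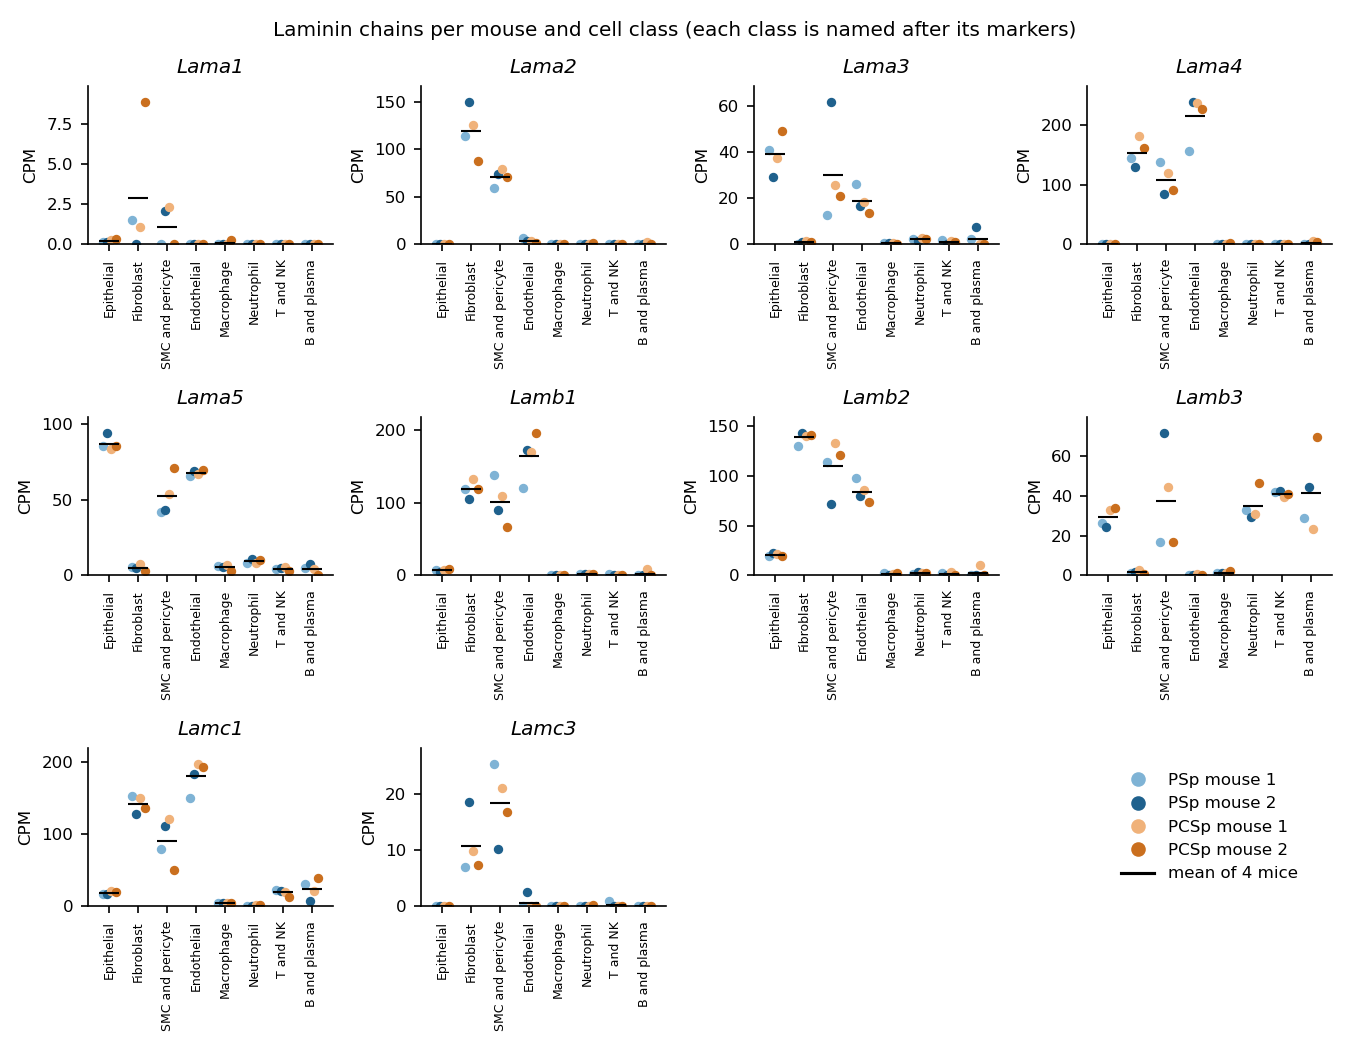
Level (CPM, linear axes from 0, each panel with its own scale) of 10 laminin chains in the 8 cell classes, with 1 point per mouse and a line at the mean of 4 mice. Lama2 and Lamb2 stand highest in the fibroblast-like column, and Lamb3 has points between 23.4 and 69.7 CPM in the B and plasma-like column.

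Within the epithelial-like cells, 4 named subclasses had at least 20 cells in every mouse: basal-like, luminal-like, luminal-progenitor-like and cycling cells. Sub-clusters left unnamed held 54.8%, 59.4%, 50.7% and 53.8% of the epithelial-like cells over the 4 mice. They did not enter the ranking of subclasses below. Of the 17 members that reached 10 CPM in 1 of them, 11 were highest in basal-like cells, 4 in luminal-progenitor-like cells and 2 in luminal-like cells. For 7 of the 17, all highest in basal-like cells, the mice did not overlap with any other subclass, against 33.4% of the 9168 genes of that level. Lama3 had 59.5 and 67.7 CPM in PSp against 87.1 and 89.4 CPM in PCSp in basal-like cells and 8.17 to 10.4 CPM in luminal-like cells. Lamb3 had 52 and 83 CPM in PSp against 106 and 98.8 CPM in PCSp in basal-like cells, 14.1 to 17.7 CPM in luminal-progenitor-like cells and 1.63 to 8.22 CPM in luminal-like cells. Both chains were highest in basal-like cells. The 3 sub-clusters that make up the luminal-progenitor-like cells, and the larger of the 2 luminal-like ones, had none of their class's markers among their 10 leading genes, and these names rest on marker levels alone. Luminal-like cells numbered only 45 and 50 in PSp mouse 1 and PCSp mouse 2.

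The basal-like cells were themselves uneven. Their largest sub-cluster, led by Fst, Krt14 and Col17a1, held Lamb3 at 94, 122, 133 and 126 CPM and Lama3 at 96.5, 98.8, 103 and 110.2 CPM. A second basal-like sub-cluster, led by Ndufa4l2, Dmkn and Krt13, held Lamb3 at 12.2 to 20.1 CPM and Lama3 at 21 to 29.5 CPM. Every mouse of the first lay above every mouse of the second for both chains. Lamb1 (means of 33.4 and 6.34 CPM), Itgb4 (169.5 and 68.5) and Itgb1 (348 and 184) had the same order. At resolution 2 the sub-cluster led by Ndufa4l2, Ifitm1 and Galnt6 was named squamous-like from its markers, and with the members included in the clustering it was left unnamed because squamous markers led it, so its basal-like name holds at resolution 1 without the members only. Clusters were formed from other genes of the same cells, so these are descriptions and not tests.

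Lamb3 was also present outside the epithelium. T and NK-like cells had 42 and 42.3 CPM in PSp against 39.4 and 41 CPM in PCSp, and neutrophil-like cells had 32.8 and 29.7 CPM in PSp against 30.8 and 46.7 CPM in PCSp. B and plasma-like cells had 29, 44.9, 23.4 and 69.7 CPM, from 47 UMIs. The free-RNA ceilings for Lamb3 in these classes were 0.883, 2.01 and 1.26 CPM, and its level in macrophage and monocyte-like cells was 1.1 to 2.22 CPM, in fibroblast-like cells 0.631 to 2.63 CPM and in endothelial-like cells 0 to 0.828 CPM. Lamb3 in smooth muscle and pericyte-like cells averaged 37.4 CPM, above a ceiling of 2.75 CPM. Its partner Lama3 was at 0 to 1.75 CPM in T and NK-like cells, with a mean under its ceiling of 1.18 CPM, and at a mean of 2.16 CPM in neutrophil-like cells, under a ceiling of 2.69 CPM. In B and plasma-like cells Lama3 had a mean of 2.47 CPM, above its ceiling of 1.69 CPM. Within T and NK-like cells, Lamb3 was at 65.9, 63, 81.5 and 39.7 CPM in the cluster led by Gzma, Ccl5 and Gzmc, at 38.1, 57.5, 48 and 57.8 CPM in the cluster led by Ccl5, Nkg7 and Cd3g, and at 26.6, 13.6, 12.4 and 17.5 CPM in the cluster led by Cd3g, Icos and Il7r. The cytotoxic clusters thus lay above the Icos and Il7r cluster in every mouse.

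Position bears on how Lamb3 was counted. In GENCODE M21 (GRCm38, the mm10 genome) Lamb3 spans chr1:193207699-193343878 on the plus strand and overlaps 2 protein-coding genes of the minus strand, Hsd11b1 and G0s2. G0s2, a cell cycle and lipolysis regulator used here as a neutrophil marker, had 1649 to 3125 CPM in neutrophil-like cells. In T and NK-like cells G0s2 had 1.75 to 5.25 CPM, and in B and plasma-like cells 0 to 7.48 CPM. Lamb3 was thus counted at similar levels in lymphoid classes with little G0s2 and in neutrophil-like cells with abundant G0s2. Within neutrophil-like cells, G0s2 had 1649, 1722, 1930 and 3125 CPM, and Lamb3 had 32.8, 29.7, 30.8 and 46.7 CPM. PCSp mouse 2 was highest in both, and the other mice did not keep the same order. A comparison of different cell types cannot show the part of G0s2 reads in the neutrophil-like Lamb3 value, which was not tested. Among the other members, Itgam and Itga10 overlap a protein-coding gene model on their own strand, as does Itga1, which holds Pelo, so these 3 counts can be shared with another gene. Itga4, Itga7, Itgad and Itgae overlap protein-coding genes on the opposite strand.

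Of the laminin-binding integrin subunits, Itga6 was highest in endothelial-like cells, at 384 and 355 CPM in PSp against 470.1 and 406 CPM in PCSp. Epithelial-like cells had 193 and 163 CPM in PSp against 191 and 195 CPM in PCSp, and within them the basal-like cells 259.8, 248, 318 and 297 CPM. Smooth muscle and pericyte-like cells had 54.7, 211, 179.9 and 71 CPM, a spread that follows no genotype. The 12 epithelial markers summed to 1401, 4077, 2647 and 1654 CPM in that class, with the mice in the same order. The part of epithelial RNA in this Itga6 level was not tested. Itgb4, the hemidesmosomal partner of Itga6, had 124 and 131 CPM in PSp against 142 and 143 CPM in PCSp in basal-like cells. Cycling cells came next with 103, 81.5, 66.1 and 78.9 CPM, luminal-progenitor-like cells had 34 to 44.2 CPM and luminal-like cells 21.6 to 31.5 CPM, so that basal-like cells stood above every other subclass. Endothelial-like cells also held Itgb4, at 52, 65.3, 43 and 49.3 CPM, overlapping the epithelial-like range of 56.6 to 69.1 CPM. Itga3 had 35.8, 47, 53.8 and 50.7 CPM in basal-like cells and 23.2 to 31 CPM in endothelial-like cells. Itga7, the laminin receptor of muscle, was highest in smooth muscle and pericyte-like cells among the 8 classes, at 58.9, 45.1, 79.4 and 62.7 CPM, with the next class, endothelial-like, at 4.84 CPM and under its ceiling of 8.56 CPM.

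Itgb1, the common beta subunit, was the member with the most UMIs (68051) and was above the free-RNA ceiling in all 8 classes. It had 749 and 634 CPM in PSp against 977 and 927 CPM in PCSp in smooth muscle and pericyte-like cells, 568 and 569 CPM in PSp against 745 and 725 CPM in PCSp in endothelial-like cells and 397, 325, 423 and 501 CPM in fibroblast-like cells. The first of these classes overlapped with the second, while fibroblast-like cells lay below both. T and NK-like cells had 387, 330.3, 420.3 and 323 CPM, macrophage and monocyte-like cells 251, 209.5, 244 and 287 CPM, epithelial-like cells 193, 152, 199 and 215 CPM, neutrophil-like cells 135, 141, 168 and 145 CPM and B and plasma-like cells 67.6, 119.6, 53.1 and 108 CPM. Neighbours in this order overlapped between T and NK-like and fibroblast-like cells, and between epithelial-like cells and both macrophage-like and neutrophil-like cells.

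Of the 4 collagen-binding alpha subunits, Itga1 and Itga10 were highest in smooth muscle and pericyte-like cells, Itga2 in epithelial-like cells and Itga11 in fibroblast-like cells. Itga1 had 505, 238, 472 and 422 CPM in smooth muscle and pericyte-like cells, 333, 289, 413 and 319 CPM in endothelial-like cells, 138, 127, 116 and 144 CPM in T and NK-like cells and 51.5, 37.4, 57.7 and 82.6 CPM in fibroblast-like cells. The first and second overlapped, and T and NK-like cells lay below both. Within T and NK-like cells, Itga1 was at 275, 257, 190.3 and 299.6 CPM in the Gzma cluster and 4.54 to 52.5 CPM in the Icos and Il7r cluster. Itga2 was highest in epithelial-like cells among the classes compared, at 77.4 and 61.3 CPM in PSp against 72.8 and 82.5 CPM in PCSp. Every epithelial-like mouse lay above all mice of the other classes compared (next class 20.04 CPM). Glial-like cells, outside that comparison, held Itga2 at 115.1, 94.4, 44.1 and 37.6 CPM (15 UMIs). Their PSp mice lay above every epithelial-like mouse and their PCSp mice below. Itga10, of cartilage and perivascular cells, had 25.3, 20.5, 56.1 and 20.9 CPM in smooth muscle and pericyte-like cells, and Itga11, a fibroblast collagen receptor, had 15.1, 14.3, 18 and 13.5 CPM in fibroblast-like cells.

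Among subunits that bind fibronectin, vitronectin and latent TGF-beta, Itgav had 149.5 and 139 CPM in PSp against 141 and 134 CPM in PCSp in epithelial-like cells and 132, 94, 89.7 and 95.6 CPM in T and NK-like cells, with no overlap; by the mean over cells in place of summed UMIs, T and NK-like cells were highest. Fibroblast-like cells had 54 to 64.6 CPM of Itgav. Itgb6, which pairs with αv in epithelia, had 29.2, 29, 30.9 and 27.2 CPM in epithelial-like cells, most in luminal-progenitor-like cells (28.3 to 46 CPM) and least in basal-like and cycling cells (means of 13 and 12.5 CPM). Itgb8, the other TGF-beta-activating partner, was highest in basal-like cells among the subclasses, with 23.7, 19.4, 34 and 28.3 CPM against 7.52 to 12.9 CPM in luminal-progenitor-like cells, and over the 8 classes in fibroblast-like cells, with 17.3, 16, 13.2 and 15.1 CPM. Itgb5 was highest in macrophage and monocyte-like cells, at 238 and 254 CPM in PSp against 220.2 and 199 CPM in PCSp. It followed in fibroblast-like cells with 101, 80.9, 101 and 110.2 CPM and in smooth muscle and pericyte-like cells with 105, 82.1, 105 and 79.4 CPM, both below every macrophage-like mouse. Itga5, the fibronectin receptor, had 66.7, 82.9, 59.6 and 54.8 CPM in endothelial-like cells, above all other classes (next 34.9 CPM). Itga8 had 33.7, 32.8, 30.4 and 37.6 CPM in smooth muscle and pericyte-like cells, and Itga9 had 55.1, 42.8, 44.6 and 40.5 CPM in macrophage and monocyte-like cells.

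The leukocyte integrins were found in the immune classes. Itgam, the alpha subunit of Mac-1, had 379.6 and 358 CPM in PSp against 340.1 and 452 CPM in PCSp in neutrophil-like cells and 145 and 156 CPM in PSp against 190.4 and 204 CPM in PCSp in macrophage and monocyte-like cells, with no overlap. Itgax (CD11c) had the reverse order, with 159, 165, 137 and 129.8 CPM in macrophage and monocyte-like cells and 81.7, 97.5, 106 and 120.1 CPM in neutrophil-like cells. Itgb2, their shared beta subunit, had 186, 196, 201 and 198 CPM in neutrophil-like cells, 154, 147, 156 and 165 CPM in macrophage and monocyte-like cells and 122 to 145 CPM in T and NK-like cells. Itgal, which pairs with it as LFA-1, had 189, 204, 164 and 184 CPM in neutrophil-like cells, 122, 128, 141 and 154 CPM in T and NK-like cells and 48.3, 82.2, 53.1 and 42.6 CPM in B and plasma-like cells. Itga4, the alpha subunit of VLA-4, had 238 and 174 CPM in PSp against 288 and 257 CPM in PCSp in T and NK-like cells and 139.9, 97.2, 166 and 271 CPM in B and plasma-like cells, whose mice overlapped. Itgb7, the gut-homing partner of Itga4 and Itgae, had 192, 185, 190.5 and 178 CPM in T and NK-like cells and 48.3, 29.9, 61.6 and 54.2 CPM in B and plasma-like cells. Itgae (CD103), a mark of tissue-resident T cells, had 114, 149.9, 139.6 and 141 CPM in T and NK-like cells.

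The neutrophil-like cells held 4 clusters of at least 20 cells per mouse, and the leukocyte integrins differed between them. Itgb3, the beta subunit of the vitronectin receptor αvβ3, was at 194 and 187 CPM in PSp against 239.6 and 113 CPM in PCSp in cluster 7, led by Ccl3, Ccl4 and Mirt1. In clusters 5, 9 and 6 its means were 2.23, 2.96 and 19.8 CPM, and no mouse there exceeded 26.3 CPM. Itgae had the same profile, with 204 and 149.6 CPM in PSp against 187 and 63 CPM in PCSp in cluster 7 and at most 32.3 CPM in any mouse of the others. Itgal was lowest in the same cluster, at 26.9, 21.9, 16.8 and 24.3 CPM, against 453, 451, 332 and 299 CPM in cluster 5, which is led by S100a9 and S100a8. Itga4 was at 4.3 to 9.91 CPM in cluster 7 and 214 to 258 CPM in cluster 9. Itgb2 (means of 104 and 299 CPM in clusters 7 and 5), Itgam (192 and 593) and Itgax (30.1 and 131) were also lowest in cluster 7. In the whole neutrophil-like class, PCSp mouse 2 had the lowest Itgae (64.8, 38.7, 53.7 and 15.1 CPM over the 4 mice) and the lowest Itgb3 (57.1, 51.1, 69.8 and 28.1 CPM).

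**Figure D3:**
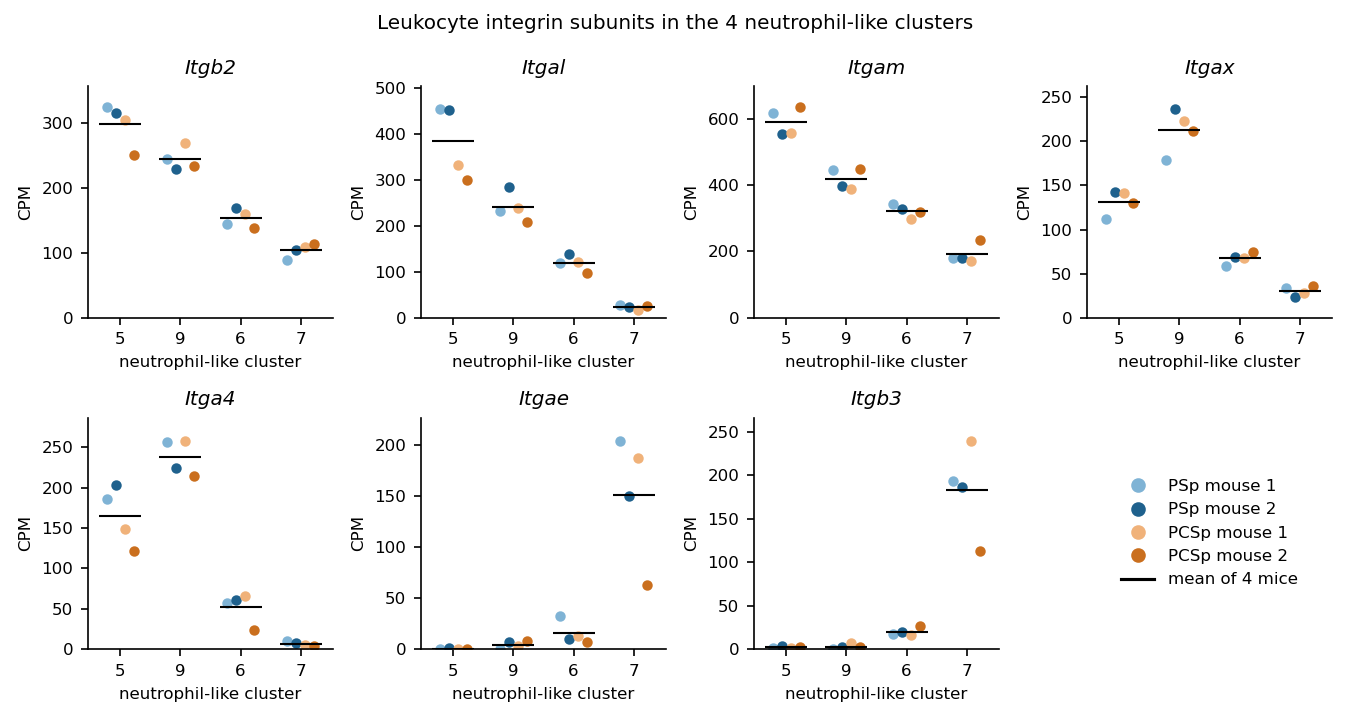
Level (CPM, linear axes from 0) of 7 leukocyte integrin subunits in the 4 neutrophil-like clusters, with 1 point per mouse and a line at the mean of 4 mice. Itgb2, Itgal and Itgam are lowest in cluster 7, where Itgae (63 to 204 CPM) and Itgb3 (113 to 239.6 CPM) are highest in every mouse.

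Macrophage and monocyte-like and lymphoid clusters differed as well. The cluster led by Cd74, H2-Aa and H2-Ab1 with Ccr2 held Itgae at 26.7, 138, 160.4 and 69.4 CPM and Itgb7 at 138, 111, 76 and 93.4 CPM. The cluster led by C1qa, C1qc and C1qb with the deepest cells held Itgae at 0 to 0.638 CPM and Itgb7 at 1.96 to 5.46 CPM. Itga6 and Itgb5 had the opposite order, at 7.28 to 13.9 and 20.01 to 37.9 CPM in the Ccr2 cluster and 105 to 121 and 281 to 352 CPM in the C1qa cluster. Of the lymphoid clusters, the Icos and Il7r cluster had most Itgb7 (345, 293, 351 and 289 CPM) and Itgb3 (53.1, 52.2, 55.9 and 55.4 CPM). The Gzma cluster had Itgax at 132, 168, 180.1 and 172 CPM, against at most 5.83 CPM in any mouse of the other lymphoid clusters shown here.

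Members with alike profiles across the 8 classes were found by Pearson's r of log2(mean CPM + 1), as a description over 8 classes that share libraries. The closest pairs included Itga3 with Itgb4 (r = 0.99), Lama5 with Itgb4 (r = 0.984), Lamb1 with Lamb2 (r = 0.979), Lama2 with Lamc3 (r = 0.974), Itga7 with Itga10 (r = 0.965), Itgal with Itgb2 (r = 0.962) and Itga1 with Itgb1 (r = 0.923). Known partners were alike to different degrees: r was 0.845 for Itga6 and Itgb4, 0.828 for Itgam and Itgb2, 0.849 for Lamb1 and Lamc1, 0.773 for Itga4 and Itgb7 and 0.572 for Itgav and Itgb6. For the laminin-332 chains Lama3 and Lamb3, r was 0.141. The closest other member to Lamb3 was Itgb6 at r = 0.508, and the closest to Itgb3 was Itgal at r = 0.531. These were the lowest best matches among the 34 members compared.

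The genotypes were then compared within each class or subclass of at least 50 cells in every mouse, with edgeR's quasi-likelihood test on UMI sums per mouse and Benjamini-Hochberg adjustment over all genes tested. A gene passed at an adjusted p under 0.05. With 2 mice per genotype, p-values measure only the spread between these 4 tumours. Part of the spread used for a gene is pooled by edgeR from the other genes tested. Chd1 itself had 91.2 and 77.9 CPM in PSp against 59.7 and 56.2 CPM in PCSp in epithelial-like cells, a log2 fold change (PCSp over PSp) of -0.56 ± 0.10 (SE) that did not pass with edgeR (adjusted p = 0.405) and did with DESeq2 (adjusted p = 0.00189). It passed in basal-like cells (-0.47 ± 0.10, adjusted p = 0.0355) and not in luminal-progenitor-like cells (-0.69 ± 0.11, adjusted p = 0.171) or cycling cells (-0.84 ± 0.19, adjusted p = 0.974). With DESeq2 it passed in basal-like (adjusted p = 0.0142) and luminal-progenitor-like cells (adjusted p = 0.00257). In fibroblast-, endothelial-, macrophage-, neutrophil- and T and NK-like cells the values were 0.24 ± 0.16, 0.31 ± 0.17, 0.40 ± 0.17, 0.29 ± 0.15 and 0.45 ± 0.13, none of which passed. Chd1 tags thus remained in PCSp epithelium at 57.9 CPM; the labels do not say which exons are floxed, and a 3' tag outside the deleted part would not report the deletion.

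The makeup of the basal-like class differed by genotype, as given below, and no member passed in its largest sub-cluster alone. Summed over all basal-like cells, 3 members were higher in PCSp tumours, among them the laminin chain Lamb1 and the common integrin subunit Itgb1. Of 37 members, 22 passed the filter on low counts there and 3 were called, all higher in PCSp, against 5.45% of all 13131 genes called in either direction. Lamb1 had 18.6 and 16.8 CPM in PSp against 29.3 and 31.5 CPM in PCSp, a log2 fold change of 0.74 ± 0.11 (edgeR adjusted p = 0.0128). Itgb1 had 254 and 228 CPM in PSp against 334 and 343 CPM in PCSp (0.45 ± 0.078, adjusted p = 0.0213). For both genes, both PCSp mice lay above both PSp mice. The number called was 4 without PSp mouse 1, 7 without PSp mouse 2, 2 without PCSp mouse 1 and 1 without PCSp mouse 2.

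The other members tested in basal-like cells did not pass. Lama3 had 59.5 and 67.7 CPM in PSp against 87.1 and 89.4 CPM in PCSp (0.44 ± 0.10, edgeR adjusted p = 0.0505), Itgb6 10.2, 10.4, 16.3 and 15 CPM (0.57 ± 0.14, adjusted p = 0.0519) and Lamc1 23.4, 27, 38.5 and 34.6 CPM (0.51 ± 0.12, adjusted p = 0.0555). Lamb3 had 52 and 83 CPM in PSp against 106 and 98.8 CPM in PCSp, with PSp mouse 1 well below the others (0.57 ± 0.20, adjusted p = 0.137). It passed without PSp mouse 2 (0.96, adjusted p = 0.00138) and without the filter on low counts (0.58, adjusted p = 3.59e-06), and had 0.26 without PSp mouse 1 and 0.22 with the members included in the clustering. Itga6 (0.24 ± 0.078, adjusted p = 0.117), Lama5 (0.26 ± 0.087, 0.127), Itga3 (0.31 ± 0.14, 0.244) and Itgb4 (0.12 ± 0.084, 0.418) had smaller values. The 1 member below 0 was Itga10 (-0.15 ± 0.35, adjusted p = 0.827). In all, 12 of the 22 had an unadjusted p under 0.05, against 23.6% of all genes; the median log2 fold change of the 22 was 0.26, against -0.0076 over all genes tested. DESeq2 called 4 members, adding Lama3, against 4.86% of all genes.

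The makeup of the basal-like class moved with genotype. The sub-cluster led by Ndufa4l2, low in Lamb1, Lama3 and Lamb3, was 28% and 24.6% of basal-like cells in PSp against 10.3% and 11.7% in PCSp, and gave 50.9%, 40.2%, 21.3% and 23.9% of the basal-like UMIs. The median UMIs per basal-like cell also differed, at 18474 and 17438 in PSp against 11754 and 9320 in PCSp. In the largest basal-like sub-cluster alone, a comparison chosen after the data were seen, no member passed with edgeR: 0.133% of 12062 genes were called there, and 7 of 22 members had an unadjusted p under 0.05, against 10.4% of all genes. Itgb1 then had 335, 292, 373 and 394 CPM (0.27 ± 0.087, edgeR adjusted p = 0.377) and Lamb1 32.3, 25.9, 35.5 and 40.04 CPM (0.35 ± 0.14, 0.446). The PCSp mice still lay above the PSp mice for both, and the log2 fold change of Lamb1 was smaller there than in the whole class. Lama3 and Lamb3 had 0.11 ± 0.092 and 0.24 ± 0.14 (adjusted p = 0.735 and 0.582). The calls also ended under finer clustering, at resolution 2, and with the members included in the clustering, with 0 members called each time; in both, the sub-cluster led by Ndufa4l2 was not part of the basal-like class. Of markers of other cells, the 10 fibroblast markers summed to 837 and 1008 CPM in the PSp mice against 1873 and 1429 CPM in the PCSp mice of the basal-like class. Nearly all of this was Dcn, which rose (0.81 ± 0.14, adjusted p = 0.0242), while each of the other 9, collagens included, stayed at or under 4.36 CPM.

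**Figure D4:**
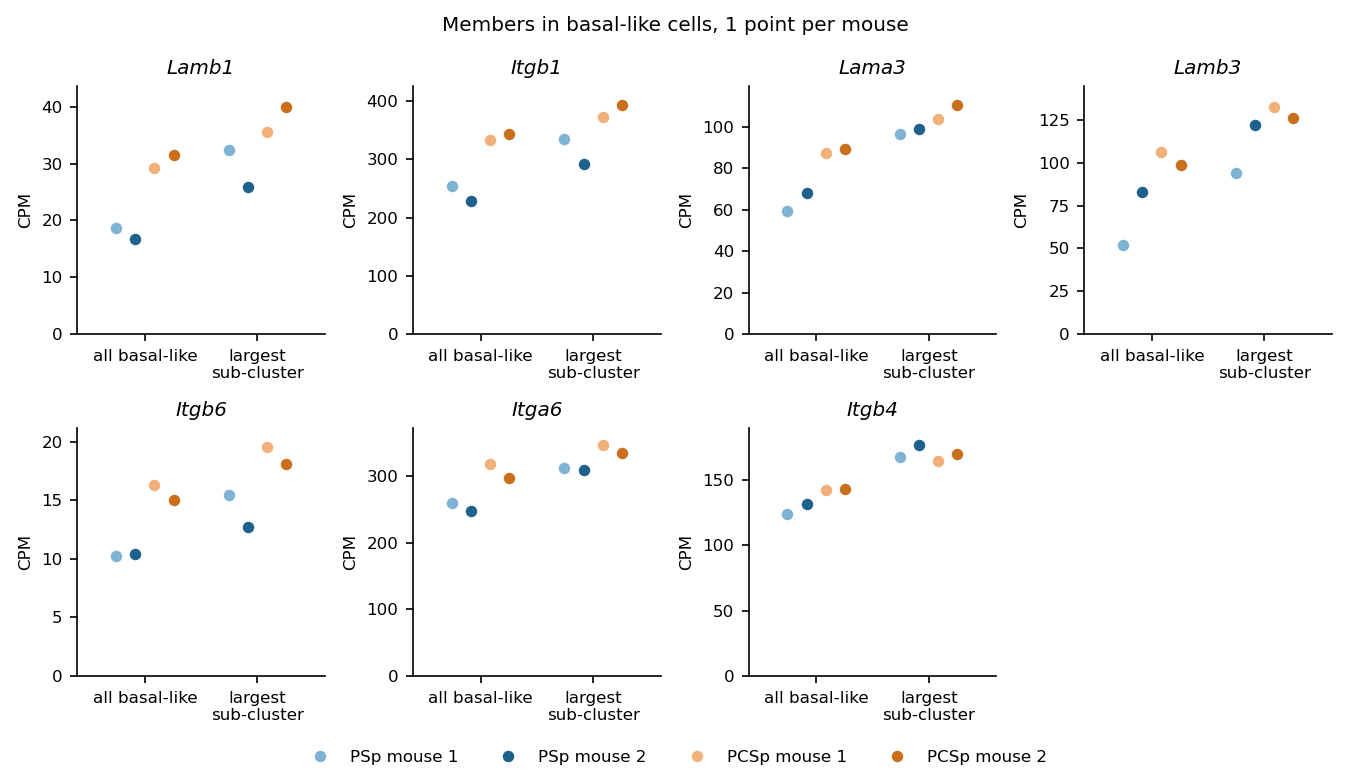
Level (CPM, linear axes from 0) of 7 members per mouse in all basal-like cells (left of each panel) and in the largest basal-like sub-cluster alone (right). The gap between PSp (blue) and PCSp (orange) mice is wider on the left for Lamb1, Itgb1 and Lama3, and the genotypes overlap for Itgb4 on the right.

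No member passed in the other 8 classes and subclasses with edgeR, and DESeq2 called none there either. In epithelial-like cells as a whole 32 members were tested with 0% of 16429 genes called; 3 members had an unadjusted p under 0.05, against 7.66% of all genes, and DESeq2 called 1.21% of all genes. Lamb3 had 26.3 and 24.2 CPM in PSp against 33 and 33.9 CPM in PCSp, with both PCSp mice above both PSp mice (0.38 ± 0.077, edgeR adjusted p = 0.407). Lamc1 followed (0.25 ± 0.082, adjusted p = 0.588), with 17.7, 16.7, 21.4 and 20.04 CPM. The 2 smallest p values below 0 belonged to Itga7 (-0.33 ± 0.25, adjusted p = 0.765) and Lama5 (-0.11 ± 0.093, 0.784). Among the other members named by rule, Lama3 had 0.29 ± 0.21, Itga6 0.10 ± 0.10, Itgb4 -0.052 ± 0.12, Itga3 0.041 ± 0.094, Itgb1 0.24 ± 0.13 and Itgb6 -0.024 ± 0.087, with adjusted p from 0.694 to 0.963. Luminal-progenitor-like cells had 3 of 23 members at an unadjusted p under 0.05 (7.73% of all genes; 0.0377% of 13279 called by edgeR and 0.678% by DESeq2). These 3 lay below 0: Itgb5 with 17.4 and 16.5 CPM in PSp against 12.4 and 12.7 CPM in PCSp (-0.41 ± 0.12, adjusted p = 0.476), Itgb8 with 12.9, 10.01, 8.24 and 7.52 CPM (-0.52 ± 0.16, 0.509) and Lama5 with 96.2, 91.4, 80.6 and 79.4 CPM (-0.21 ± 0.081, 0.596). The 2 of smallest p above 0 there were Itgb1 (0.17 ± 0.13) and Itga10 (0.51 ± 0.41). Cycling cells had 0 of 19 members at an unadjusted p under 0.05 (4.64% of all genes; 0% of 10423 called by edgeR and 0.0959% by DESeq2), with Itgb1 (0.16 ± 0.14) above 0 and Itga3 (-0.50 ± 0.22) and Itgb4 (-0.33 ± 0.18) below it.

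**Figure D5:**
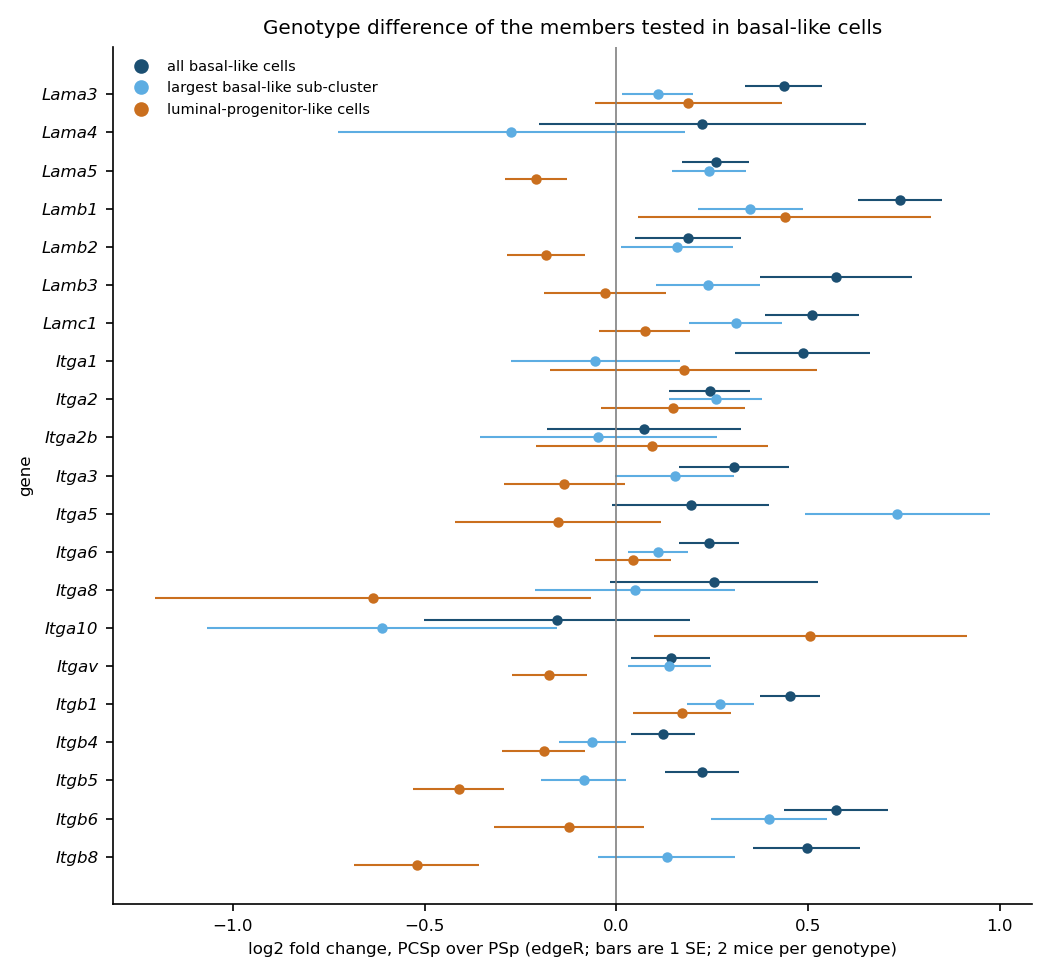
Log2 fold change (PCSp over PSp, edgeR; points are estimates and bars 1 SE, 2 mice per genotype) of 21 members tested in basal-like cells, for all basal-like cells, their largest sub-cluster and luminal-progenitor-like cells where tested. In all basal-like cells 20 of the 21 points lie above 0, with Lamb1 at 0.74, and Itgb5, Itgb8 and Lama5 lie below 0 in luminal-progenitor-like cells.

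In stroma, fibroblast-like cells had 1 of 26 members at an unadjusted p under 0.05 (3.81% of all genes; 0% of 12090 called by edgeR and 0.0331% by DESeq2): Itga1, with 51.5 and 37.4 CPM in PSp against 57.7 and 82.6 CPM in PCSp (0.63 ± 0.21, adjusted p = 0.999). Lama4 (0.31 ± 0.14) followed above 0, and Lama2 (-0.33 ± 0.21) and Itgb8 (-0.27 ± 0.19) lay below it, all with an adjusted p of 0.999. Endothelial-like cells had 1 of 17 (4.89% of all genes; 0.0225% of 8871 called by edgeR and 0.0451% by DESeq2): Itgb1, with 568 and 569 CPM in PSp against 745 and 725 CPM in PCSp (0.35 ± 0.13, adjusted p = 0.869), followed by Itga6 (0.23 ± 0.15), Itga5 (-0.40 ± 0.20) and Itga2 (-0.79 ± 0.45). Among immune cells, macrophage and monocyte-like cells had 6 of 18 members at an unadjusted p under 0.05 (6.02% of all genes; 0.0698% of 10027 called by edgeR and 0.249% by DESeq2). Itgal had 45.3 and 39.1 CPM in PSp against 31.1 and 27.7 CPM in PCSp (-0.56 ± 0.16, adjusted p = 0.635), Itgam 145 and 156 CPM in PSp against 190.4 and 204 CPM in PCSp (0.35 ± 0.11, 0.699) and Itgax 159, 165, 137 and 129.8 CPM (-0.32 ± 0.11, 0.741). Itgam was higher and Itgal and Itgax lower in PCSp. The others of the 6 were lower: Itga6 (-0.30 ± 0.12), Itgb5 (-0.27 ± 0.12) and Itgb8 (-0.74 ± 0.27). Itga5 was the second of smallest p above 0 (0.39 ± 0.24). The class held 2649737, 2734871, 3860009 and 3605515 UMIs over the 4 mice. Of these the C1qa cluster gave 1443098, 1527422, 1832435 and 1566959, and the Ccr2 cluster 411912, 449691, 829400 and 792268. The part of this makeup in the values was not tested. Neutrophil-like cells had 1 of 16 (8.98% of all genes; 0.0887% of 9022 called by edgeR and 0.211% by DESeq2): Itga5, with 20.6, 23.7, 30.5 and 31 CPM (0.42 ± 0.19, adjusted p = 0.542), ahead of Itgax (0.29 ± 0.16), Itgae (-0.66 ± 0.42) and Itgal (-0.22 ± 0.15). Without PCSp mouse 1, Itgae passed in neutrophil-like cells (-1.79, adjusted p = 2.99e-05), a comparison in which PCSp mouse 2 stands alone and 2 members were called. T and NK-like cells had 3 of 14 (8.49% of all genes; 0.512% of 7807 called by edgeR and 0.359% by DESeq2). Itga4 had 238 and 174 CPM in PSp against 288 and 257 CPM in PCSp (0.37 ± 0.13, adjusted p = 0.381), and passed without PSp mouse 1 (0.58, adjusted p = 0.0198). Itgax (-0.51 ± 0.23), Itgav (-0.34 ± 0.16) and Itgal (0.19 ± 0.13) had adjusted p from 0.566 to 0.791. The Gzma cluster, which holds most of the lymphoid Itgax and where Itgax was not lower in PCSp (132, 168, 180.1 and 172 CPM), gave 30.5% and 32.2% of the T and NK-like UMIs in PSp against 15.4% and 20.7% in PCSp. Across these classes 36 of the 37 members passed the filter on low counts in at least 1; Itgad was not tested in any.

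Whether the genotype effect on a member differed between classes was tested with an interaction term in edgeR. Against fibroblast-, endothelial-, macrophage-, neutrophil- and T and NK-like cells, the epithelial-like effect differed for no member of 36, 33, 33, 34 and 32 tested, where 0.0484%, 0.492%, 0.0638%, 0.362% and 0.406% of all genes were called. At an unadjusted p under 0.05 there were 1, 1, 5, 6 and 0 members, against 4.64%, 4.45%, 4.54%, 6.62% and 4.99% of all genes. Itgal in neutrophil-like cells had the lowest adjusted p (0.0595, a log2 difference of 1.20 ± 0.31), but its epithelial-like level was under 1 CPM in every mouse. Between basal-like and luminal-progenitor-like cells, a pair added after the data were seen, 2 of 25 members differed, against 1.73% of 14097 genes: Itgb8 (1.02 ± 0.15, adjusted p = 0.0307) and Itgb5 (0.63 ± 0.12, adjusted p = 0.0482). Lama5 had 0.47 ± 0.088 (adjusted p = 0.0511), and 11 of the 25 members had an unadjusted p under 0.05, against 18.2% of all genes. In all basal-like cells the genotype values of Itgb8 and Itgb5 were 0.50 ± 0.14 and 0.22 ± 0.10, and neither passed (adjusted p = 0.085 and 0.211). In the largest basal-like sub-cluster Itgb8 had 0.13 ± 0.18 and Itgb5 -0.085 ± 0.11 (adjusted p = 0.843 and 0.838), so that Itgb5 turned direction there. With that sub-cluster in place of the whole class, the difference from luminal-progenitor-like cells was 0.66 ± 0.17 (adjusted p = 0.42) for Itgb8 and 0.33 ± 0.14 (adjusted p = 0.648) for Itgb5. With 1 mouse left out at a time, 0 to 6 members differed between these subclasses (0 without PCSp mouse 1 and 6 without PSp mouse 2).

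Partner genes of the pathway were read from 5 lists, chosen with earlier results of these data known. The shares and medians below are thus descriptions and no independent support. Of the 5 lists, 4 had called genes in basal-like cells, each higher in PCSp, where 5.45% of all genes were called. Of the other basement membrane genes 6 of 14 passed (median log2 fold change 0.53, against -0.0076 over all genes): Col4a6 (0.88 ± 0.13, adjusted p = 0.0112), Col7a1 (0.73 ± 0.12, adjusted p = 0.0162), Col4a2, Hspg2, Agrn and Col18a1. Col7a1, the anchoring fibril collagen that joins laminin-332 to the matrix, had 48.1 and 40.3 CPM in PSp against 69.7 and 80.9 CPM in PCSp. Of the hemidesmosome partners 4 of 6 passed (median 0.41): Dst (0.77 ± 0.079, adjusted p = 0.00337), Col17a1 (0.56 ± 0.08, adjusted p = 0.0113), Krt14 and Plec. Krt14 is also a naming marker of the basal-like class. Of the non-integrin laminin receptors 1 of 6 passed, Bcam (0.64 ± 0.10, adjusted p = 0.0172; median 0.21), which binds Lama5. None of 19 integrin activators and adhesion complex genes passed (median 0.11; 5 had an unadjusted p under 0.05, against 23.6% of all genes), with Fermt2 (0.45 ± 0.13, adjusted p = 0.085) and Pxn (0.40 ± 0.11, adjusted p = 0.0887) of smallest p. Of the other integrin ligands 1 of 15 passed, near the share of all genes: Thbs1 (0.69 ± 0.14, adjusted p = 0.0332; median 0.26). In the largest basal-like sub-cluster alone no gene of the 5 lists passed with edgeR, and 2 of 14, 1 of 6, 2 of 6, 2 of 19 and 3 of 15 had an unadjusted p under 0.05, against 10.4% of all genes there. Dst had 0.33 there (adjusted p = 0.303). In the other 8 classes and subclasses 1 list gene passed: Spp1 (osteopontin, an integrin ligand) in T and NK-like cells, with 74.3 and 75.4 CPM in PSp against 19.4 and 23.7 CPM in PCSp (-1.87 ± 0.21, adjusted p = 5.57e-04). Spp1 in macrophage and monocyte-like cells was 758, 808, 1122 and 1855 CPM and in neutrophil-like cells 964, 855, 488 and 1096 CPM; the part of their RNA in the T and NK-like value was not tested.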

How the data were processed

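The authors deposited UMI counts per gene and barcode, made with Cell Ranger 6.1.2 on mm10 per the submitters' processing notes; library totals are given above. Barcodes with at least 300 genes, 500 UMIs and at most 20% mitochondrial UMIs were kept. Scrublet's own threshold marked 0 barcodes, so those of highest doublet score were left out, 0.8% per 1000 barcodes. Cells were clustered (scanpy 1.11.5; 2000 variable genes without members, 30 components, Leiden resolution 1) and named from at least 3 markers. The members, lists and markers were chosen with earlier results of these data known. Counts were summed per mouse and class and tested with edgeR 4.0.16 (quasi-likelihood, TMM, filterByExpr) over all genes, with Benjamini-Hochberg adjustment; every adjusted p comes from it unless DESeq2 1.42.0 is named. The scripts were tested on simulated data. Named were all members at their highest class, members that passed, the 2 of smallest p per direction and class, fixed laminin-332 and hemidesmosome genes, and list genes that passed, otherwise the 2 of smallest p. The values of 1 member are not reported here; counts over the members include it. Clusters were described after their values were seen. Alternatives covered size factors, filters, doublet rate, clustering and each mouse left out.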

Additional observations from a re-analysis of the deposited data

Results flagged for a closer look

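The genotype effect (PCSp over PSp, log2) of Itgb8 was larger by 1.02 in basal-like than in luminal-progenitor-like cells, and that of Itgb5 by 0.63, by an interaction term in edgeR. This pair of subclasses was chosen after the data were seen. Neither difference passed at clustering resolution 2 (0.60 and 0.17), with the members among the clustering genes (0.43 for both), or with the largest basal-like sub-cluster alone (0.66 and 0.33). The luminal-progenitor-like class changed as well: in the main clustering it included sub-clusters led by Hp and by Reg1. At resolution 2 a sub-cluster led by Hp (715 cells) was left unnamed, and with the members one led by Reg1 (708 cells).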

How the results depend on the processing

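Of 578 alternative values of the named log2 fold changes, 533 kept their direction and side of the threshold, 22 no longer passed, 13 newly passed and 10 turned direction. Most of the named values did not pass at the main settings, so keeping their side of the threshold says little about those that did. In basal-like cells, where 3 members were called, RLE size factors gave 6, no filter on low counts 9 and a doublet rate 2 times as high 5. Clustering at resolution 2, clustering with the members and the largest sub-cluster alone gave 0 each, and Itgb4 there had -0.034, -0.061 and -0.063. Leaving out 1 mouse gave 1 to 7 in basal-like cells (4 without PSp mouse 1, 7 without PSp mouse 2, 2 without PCSp mouse 1 and 1 without PCSp mouse 2). It gave 0 to 1 in macrophage-like cells (1 without PSp mouse 2), 0 to 2 in neutrophil-like cells (2 without PCSp mouse 1), 0 to 1 in T and NK-like cells (1 without PSp mouse 1), 0 to 1 for epithelial against macrophage-like cells and 0 to 6 for basal against luminal-progenitor-like cells. A genotype left with 1 mouse is assumed to vary like the other. Without the filter on low counts 1 member was called in fibroblast-like cells, 1 for epithelial against macrophage-like cells and 6 for basal against luminal-progenitor-like cells. That last count was 0 at resolution 2, 0 with the members and 0 with the largest sub-cluster. The stricter cell filter gave 1 for epithelial against neutrophil-like cells. In epithelial-like cells, leaving out 1 mouse moved Itga6 from -0.0059 to 0.20, Itgb4 from -0.17 to 0.075, Itga3 from -0.039 to 0.12 and Itgb6 from -0.11 to 0.053, and Itgb6 had 0.0011 under the stricter filter. With a minimum of 50 CPM, 2 members were highest in fibroblast-like, 3 in smooth muscle and pericyte-like and 0 in B and plasma-like cells; the last count was 0 under the stricter filter and 0 to 1 with 1 mouse left out. By the mean over cells, Itga3 was highest in epithelial-like in place of endothelial-like cells and Itgav in T and NK-like in place of epithelial-like cells; Itga3 changed likewise without PSp mouse 2. Lamb3 was highest in T and NK-like cells under the stricter filter and without PSp mouse 2, and in smooth muscle and pericyte-like cells without PCSp mouse 2. The cause of these changes was not tested. No paired analysis was possible because replicate numbers follow accession order. Depth limits the small classes most: Lamb3 in B and plasma-like cells rests on 47 UMIs.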

Other observations

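A class outside the 8 above, glial-like cells (86 cells, with Pmp22 and Kcna1 among its leading genes), held Lamb1 at 336 ± 115 CPM, Itgb8 at 319 ± 150.4 CPM, Itga6 at 319 ± 64.2 CPM, Itgb4 at 224 ± 97.1 CPM and Lama4 at 213 ± 21.7 CPM (SD, n = 4), and no Itga9 UMI. Lymphatic-endothelial-like cells (161 cells) held Lama4 at 381 ± 58.4 CPM, Itgb1 at 434 ± 127 CPM and Itga9 at 79.7 ± 25.2 CPM. Both have under 20 cells in at least 1 mouse and entered no comparison.

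Lama5 was at 421, 483, 429.7 and 439.8 CPM in an unnamed epithelial-like sub-cluster led by Gm26917, whose cells had a median of 2727 UMIs. The largest basal-like sub-cluster held Lama5 at 74.3 to 93.6 CPM, with a median of 13025 UMIs per cell. The unnamed sub-cluster lies outside the ranking of subclasses, where Lama5 was highest in luminal-progenitor-like cells at a mean of 86.9 CPM.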
